A study of Mus musculus with 29 samples.

Results

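The basal-like domain is the lower part of mixed bladder lesions that form in mutant mice, and its 3 laser-captured libraries were set against the 3 libraries of basal tumors from control mice. These are 6 of the 29 samples of the series. The groups were normalized in separate tables, but both tables hold the same 3 libraries of the luminal domain, the upper part of the mixed lesions. For each gene, log2(normalized count + 1) of a basal-like domain library (CT129, CT144 and CT149) minus the luminal domain mean (CT128, CT143 and CT148) of its own table was set against the same value of a basal tumor library (CT111, CT113 and CT115). The study asked how activation of Pparg in basal cells of the urothelium, the lining of the bladder, alters the tumors that the carcinogen BBN induces.

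All 9 libraries are labelled with 5 months of BBN, which was given at 0.05% in the drinking water, and their titles carry a time of 4 months. Tamoxifen was given at 8 to 12 weeks of age. Basal tumors are labelled wild type, and the study's text names VP16;Pparg fl/fl and K5;mTmG mice as controls. Both domains are labelled K5VP16;Pparg+/-, in which tamoxifen activates Cre under the Krt5 promoter, and Cre then switches on Pparg1 fused to the VP16 activator at the Rosa26 locus under a CAG promoter. The groups thus differ in genotype as well as in tumor, and these cannot be told apart. The labels do not say which libraries share a mouse or a lesion, so p-values measure only the spread between libraries.

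Basal cells of the urothelium are anchored to the basement membrane by hemidesmosomes and express the keratins Krt5 and Krt14. Superficial cells face the lumen, are coated by uroplakins and express Krt18 and Krt20. Pparg is a nuclear receptor that forms a dimer with retinoid X receptors, drives genes of lipid use and is known as a regulator of luminal differentiation. Basal and luminal subtypes of bladder cancer are named for these programs.

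Normalized counts summed to between 43223602 and 46690609 in the basal tumor libraries and to between 42985095 and 49299308 in the basal-like domain libraries. The number of reads behind them is unknown. In the luminal domain libraries the tables differed only by a factor for each gene and a factor for each library, to within 1.1e-14 on the log2 scale, over the 15127 genes above 0 in all 3. The factor between tables exceeded 1.5 for 102 of these genes. Cdh1 and Epcam, which mark epithelial cells, had at least 5185 and 6367 normalized counts in each of the 9 libraries. Some libraries stood apart within their group. CT113 had the highest T cell, NK and plasma cell markers of the basal tumors, and CT111 had the highest smooth muscle and neutrophil markers there. In the basal-like domain CT149 had the lowest luminal markers and CT129 the highest fibroblast markers.

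Over the 15114 genes tested, each basal-like domain library lay closer on average to the luminal domain than to basal tumors. The median absolute log2 difference between a basal-like domain library and a basal tumor library ranged from 0.753 to 0.977 over the 9 pairs, with a median of 0.864. Between basal-like and luminal domain libraries it ranged from 0.508 to 0.777, with a median of 0.667. Basal tumors lay 0.88 to 1.124 from the luminal domain. The spread within a group was 0.601 to 0.706 among basal-like and 0.619 to 0.695 among luminal domain libraries. Among basal tumors it was 0.839 to 0.876, and distances to basal tumors hold this wider spread. The distance from basal-like domains to basal tumors therefore spanned the distance of basal tumors from each other. That from basal-like to luminal domains spanned the spread within each domain. Of the basal tumors, CT113 lay nearest to each of the 3 basal-like domain libraries, at 0.753 to 0.81, and CT111 lay farthest, at 0.896 to 0.977. On average CT113 and CT115 lay nearer to the basal-like domain (0.775 and 0.84) than to the other basal tumors (0.857 and 0.866). CT111 lay nearer to the other basal tumors (0.847 against 0.938). Each basal-like domain library was nearest to a different luminal domain library, CT129 to CT128 at 0.579, CT144 to CT143 at 0.508 and CT149 to CT148 at 0.556. The distances are a description, with no test.

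**Figure D1:**
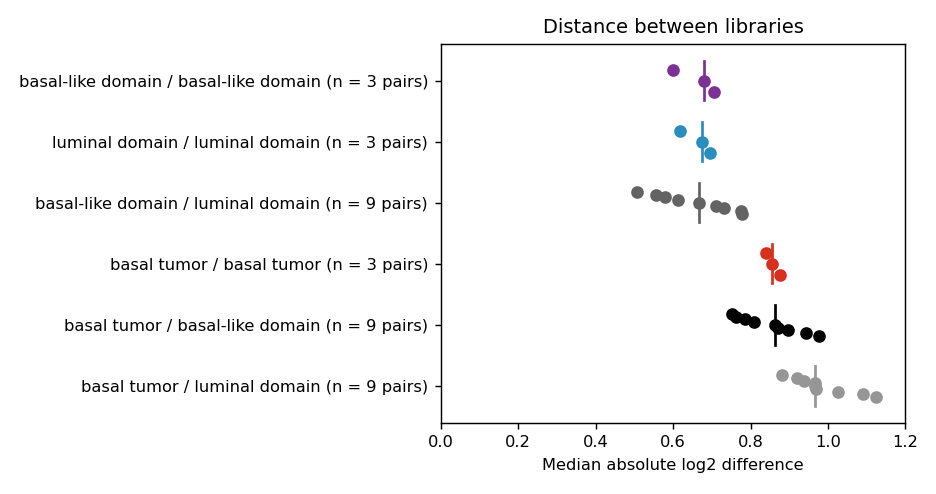
Each point is a pair of libraries, placed on the x axis by the median over 15114 genes of the absolute log2 difference, and bars are the median of each kind of pair. The 9 pairs of a basal-like domain and a basal tumor library, from 0.753 to 0.977, span the 3 pairs of basal tumors, and 7 of the 9 exceed 0.777, the largest value between basal-like and luminal domain.

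With limma and Benjamini-Hochberg adjustment, 0 of 15114 genes (0%) differed between basal-like domain and basal tumors at an adjusted p under 0.05, and the smallest adjusted p was 0.148. At an unadjusted p under 0.05, 966 genes (6.39%) were higher in the basal-like domain and 687 (4.55%) were lower. In 1460 genes (9.66%) each basal-like domain library lay above each basal tumor library, and in 1130 (7.48%) each lay below. These shares are the background for the counts of gene groups that follow. A fit that pools the spread with the luminal domain called 39 genes and a fit without a trend in the spread called 11, while without CT113 44 genes were called and without CT115 7 were called. Another 21 settings called 0. A p above the threshold does not show that levels were alike, so 95% confidence intervals are given in parentheses after most differences. Against the luminal domain, the same test called 0 genes (0%) in the basal-like domain, where 784 had an unadjusted p under 0.05, 12 were called without a trend and 0 at a pseudocount of 5. With consecutive library numbers as a block, a pairing that no label gives, 0 genes were called and 1881 had an unadjusted p under 0.05. In basal tumors the test without a block called 314, 109 higher (0.721%) and 205 lower (1.36%). The count of 314 rested on single libraries, since it was 0 without CT128 or CT143, 13 without CT148, 22 without CT111 and 159 without CT115.

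Luminal markers were higher in the basal-like domain than in basal tumors. Of the 16 luminal markers tested, 16 were higher on average, with a median difference of 2.80 on the log2 scale against 0.03 over all genes tested. In 9 of them the groups did not overlap, and 0 passed the adjusted threshold. Without CT111 the median was 1.65. Against the luminal domain the median was -0.80 in the basal-like domain and -3.76 in basal tumors, and both values share the same luminal domain libraries. The list holds markers that the study shows for these tumors and was made with their direction known, so it is not independent evidence.

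Pparg, the receptor that the transgene supplies, had 135, 13.7 and 109 normalized counts in the 3 basal tumors (CT111, CT113 and CT115, in this order throughout). In the basal-like domain it had 3191, 2867 and 2297 (CT129, CT144 and CT149, in this order throughout), and in the luminal domain 5405, 5001 and 4051 (CT128, CT143 and CT148). Each basal-like domain library lay far above each basal tumor. The basal-like domain exceeded basal tumors by 5.51 on the log2 scale (3.47 to 7.56, limma adjusted p = 0.15), and differed from the luminal domain by -0.79. Reads of the transgene and of the endogenous gene were not told apart in these values. In the fit of 9 libraries, and without CT113, Pparg passed the threshold.

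**Figure D2:**
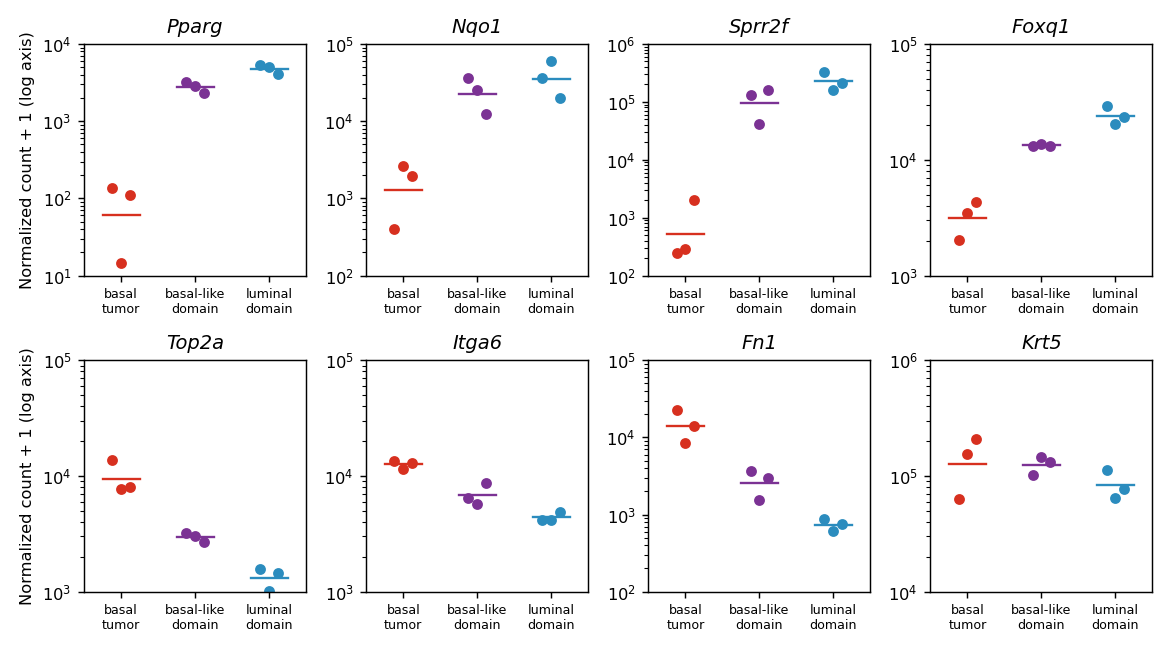
Each panel shows 1 gene, with a point for each library and a bar for the geometric mean of each group of 3. The y axis is the normalized count + 1 on a log axis, with the basal-like domain brought to the scale of the basal tumor table. For Pparg, Nqo1, Sprr2f and Foxq1 the 3 basal-like domain libraries lie above the basal tumors, for Top2a, Itga6 and Fn1 they lie below, and for Krt5 they overlap.

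Uroplakins, the membrane proteins of the superficial cell coat, varied widely within the basal-like domain. Upk2 had 11.4, 125 and 64.9 normalized counts in basal tumors against 9356, 3357 and 453 in the basal-like domain, a difference of 5.69 (2.77 to 8.62, limma adjusted p = 0.191). Upk3b had 5.42, 0.965 and 53.9 against 2684, 1394 and 83.7, a difference of 6.27 (2.34 to 10.20). Neither gene overlapped between the groups, although CT149 came close to CT115 in Upk3b. Upk3a had 680.5, 4.7 and 27.1 in basal tumors against 18832, 889 and 6.6 in the basal-like domain. CT149 thus sat among the basal tumors for Upk3a. For Upk1b the basal-like domain had 30660.0, 19361 and 26619 against 41, 8630.2 and 1004, with no overlap, and the difference of 5.13 (1.45 to 8.82) was 3.09 without CT111. Upk1a overlapped, with a difference of 5.23 (1.25 to 9.21).

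Keratins of the luminal program differed in how far they separated the groups. Krt19 had 15333, 41086 and 36519 normalized counts in basal tumors against 97861, 147266 and 134609.8 in the basal-like domain, a difference of 2.13 (1.14 to 3.12, limma adjusted p = 0.178). Krt7 had 12528, 81018 and 30165 against 137323, 166259.9 and 149951, a difference of 2.27 (0.86 to 3.68). Neither overlapped between the groups. Krt18 and Krt20, keratins of superficial cells, did overlap, with differences of 1.42 (-0.71 to 3.54) and 3.19 (-0.78 to 7.16). The Krt18 difference was 0.93 without CT129, 0.77 without CT144, 2.56 without CT149 and 0.87 without CT111, and that of Krt20 was 2.07 without CT144 and 1.27 without CT111. For Krt18 the overlap came from CT149, whose 4434 normalized counts lay among the 3748, 11694 and 11954 of basal tumors.

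Gata3 and Foxa1, transcription factors of luminal cells, were higher in the basal-like domain with no overlap, by 2.40 (0.59 to 4.22) and 1.36 (0.34 to 2.38). The Gata3 difference was 1.44 without CT111. Gata3 had 350.0, 4098 and 1656 normalized counts in basal tumors, with CT111 the lowest, against 9431, 6739 and 5544 in the basal-like domain. Among receptors of the EGF family, Erbb3 did not overlap, with a difference of 1.12 (0.22 to 2.02), and Erbb2 did, with 0.30 (-0.73 to 1.33). Fabp4, a lipid carrier that Pparg activates, had 1137, 77.7 and 50164 in basal tumors against 200578, 17010.2 and 3399, and overlapped.

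Basal markers overlapped between the groups in all but 1 gene. Of the 9 basal markers 3 were higher and 6 lower on average in the basal-like domain, with a median of -0.37, and 0 passed the test. The median was 0.01 without CT129, -0.74 without CT113 and 0.08 without CT115. Krt5 had 63683, 155653 and 207329 normalized counts in basal tumors and 102241, 147142 and 130911 in the basal-like domain, a difference of -0.02 (-1.14 to 1.10). Krt14 had 217341, 147049.6 and 458421 against 112947, 267679 and 223689.6, a difference of -0.37 (-1.65 to 0.91). The basal-like domain lay inside the range of basal tumors for Krt5, and for Krt14 CT129 lay below it. Both signs turned in some settings, and both intervals leave room for differences of more than 1 log2 unit. Cd44, a hyaluronan receptor of basal cells, was the marker without overlap, at 14660.3, 19027 and 13026 against 12583, 10398 and 11673, a difference of -0.42 (-1.01 to 0.17) that was -0.26 without CT113. The injury keratins Krt6a, Krt16 and Krt6b spread widely among basal tumors. Krt6b ranged there from 79.6 in CT113 to 42240.5 in CT115. Their differences were -0.89 (-2.28 to 0.50), -1.09 (-3.56 to 1.38) and 0.41 (-4.05 to 4.88), and the signs of Krt16 and Krt6b turned with 1 library left out. The Krt6a difference was -0.38 without CT129, -1.44 without CT113 and -0.45 without CT115. Cdh3, a cadherin of basal cells, differed by -0.77 (-1.73 to 0.20). Trp63, the transcription factor of the basal layer, had 4020.0, 4814 and 9334 in basal tumors against 4974, 3215 and 6851, and overlapped.

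**Figure D3:**
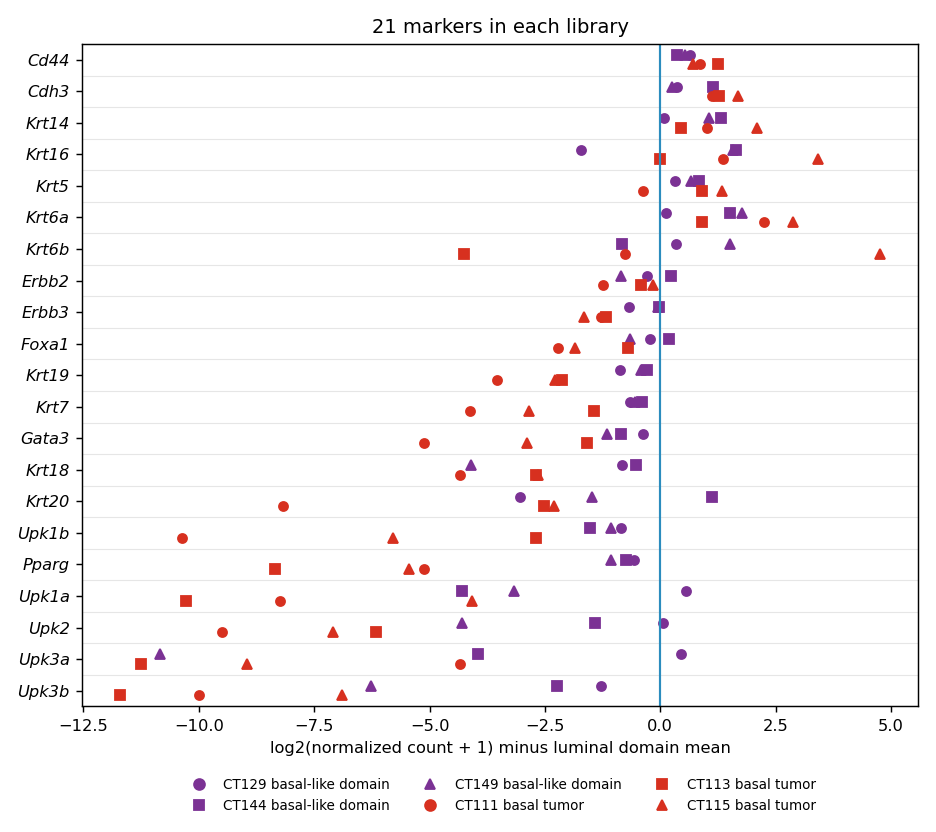
The 21 markers are in rows, and the x axis is log2(normalized count + 1) minus the luminal domain mean of the same table, which is the vertical line at 0. Symbols are the 3 basal-like domain and the 3 basal tumor libraries. Basal markers overlap except for Cd44, and for Pparg the basal-like domain averages -0.79 and the basal tumors -6.31.

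Genes of the basement membrane anchor were lower in the basal-like domain. Of 9 genes of hemidesmosomes and laminin-332, the structures that fix basal cells to the matrix, 7 were lower on average, with a median of -0.88. In 4 of them the groups did not overlap (Itga6, Itgb4, Col17a1 and Dst), and 0 passed the adjusted threshold. The median lay between -0.94 and -0.73 over the fits that drop 1 library. The integrin subunit Itga6 had 13378, 11482 and 13018 normalized counts in basal tumors, 6499, 5707 and 8666 in the basal-like domain and 4156, 4136 and 4908 in the luminal domain. The basal-like domain thus lay between the other groups, without overlap on either side. The difference from basal tumors was -0.88 (-1.48 to -0.28, limma adjusted p = 0.307). Itgb4, its partner, differed by -1.01 (-1.77 to -0.25), Col17a1, a transmembrane collagen, by -0.82 (-1.41 to -0.23) and Dst, a plakin that links to keratin, by -0.94 (-1.58 to -0.29). The laminin chain Lamb3 overlapped, with -0.97 (-2.03 to 0.09), or -0.52 without CT129. A wider list of 16 basal cell and desmosome genes had a median of 0.32 (0.11 without CT149, -0.00 without CT111 and 0.13 without CT113) and 0 genes without overlap. In it Krt17 had 37150.5, 16702 and 191853 normalized counts in basal tumors against 388, 27932 and 315 in the basal-like domain. CT144 overlapped with the basal tumors, and CT129 and CT149 lay far below.

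Transcription factors and surface genes of luminal cells were mostly higher in the basal-like domain. Of 13 urothelial transcription factors tested 10 were higher, 5 without overlap, with a median of 1.50, or 0.94 without CT111. Foxq1, a forkhead factor, had 2022, 3486 and 4327 normalized counts in basal tumors against 13144, 13784 and 13033 in the basal-like domain. The groups did not overlap and the basal-like libraries were close to each other. The difference was 2.09 (1.35 to 2.84, limma adjusted p = 0.15). Elf3, an ETS factor of epithelia, differed by 1.89 (0.93 to 2.84) and Tbx2, a T-box factor, by 2.70 (1.33 to 4.07), both without overlap. Of 16 uroplakin partners and luminal surface genes 12 were higher, 7 without overlap, with a median of 1.84. Cldn23, a claudin of tight junctions, had 54.5, 133 and 189.7 normalized counts against 5186, 2656 and 1507, a difference of 4.61 (3.07 to 6.16). Snx31, a sorting nexin that binds uroplakins, differed by 7.44 (4.19 to 10.70), Tmem246 by 8.56 (5.87 to 11.24) and Bcl2l14, of the BCL2 family, by 7.60 (4.93 to 10.27). All 4 were higher in each basal-like domain library.

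Squamous differentiation genes split into members with and without overlap. Of 23 cornified envelope and squamous genes tested 16 were higher in the basal-like domain, 6 without overlap, and the median was 0.72. The median changed with single libraries left out, to 1.12 without CT129, 1.17 without CT111, -0.16 without CT113 and 2.51 without CT115. The mean of these genes above the luminal domain was -2.29, -3.48 and 1.32 in basal tumors, highest in CT115, and -0.49, 0.08 and 0.05 in the basal-like domain. Sprr2f, a small proline-rich envelope protein, had 242, 282 and 1994 normalized counts in basal tumors against 132230.1, 40945 and 163199 in the basal-like domain. In the luminal domain it had 334385, 161025.5 and 214674, so high levels were not particular to the basal-like domain. Each basal-like domain library exceeded each basal tumor, and the difference was 7.54 (5.59 to 9.49, limma adjusted p = 0.148). It passed the threshold in 3 of the 25 alternative settings, more than any other gene. Sprr2g and Sprr1a differed by 6.75 (4.56 to 8.94) and 4.01 (2.55 to 5.48), also without overlap. Members of the Sprr2 family share sequence, so reads may have been divided among them. Ivl, the envelope precursor involucrin, differed by 4.73 (2.49 to 6.96) and Krt78 by 4.53 (1.52 to 7.55), both without overlap. From the luminal domain the basal-like domain differed by only 0.01 for Sprr2g, -0.56 for Sprr1a, -0.47 for Ivl and -0.38 for Krt78. Krtdap, Klk7 and Tgm1, which take part in the final steps of squamous differentiation, overlapped with differences of -4.21 (-9.88 to 1.47), -4.30 (-9.21 to 0.61) and -2.30 (-4.53 to -0.07). The difference was -7.12 without CT113 and -2.11 without CT115 for Krtdap, -6.47 without CT113 and -2.73 without CT115 for Klk7 and -1.32 without CT115 for Tgm1.

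Of the 30 gene lists, that of glutathione and NRF2 genes, which conjugate and reduce toxic compounds, had the most members that were higher without overlap. This count depends on the length of a list, and luminal markers had 9 of 16. The list was chosen with earlier results of these data known, so it is not independent evidence. Of its 31 genes tested, 28 were higher in the basal-like domain, 19 without overlap, and 0 passed the adjusted threshold. The median was 1.68 and lay between 1.32 and 1.90 over the fits that drop 1 library. Against the luminal domain the median was -0.56 in the basal-like domain and -2.19 in basal tumors. Nqo1, a quinone reductase, had 399.7, 2622 and 1971 normalized counts in basal tumors, 36275, 25332 and 12257 in the basal-like domain and 36325, 60646 and 20006 in the luminal domain. The domains overlapped with each other and both lay above each basal tumor. The difference from basal tumors was 4.14 (2.49 to 5.79, limma adjusted p = 0.155). Gsta3, a glutathione transferase, had 19.7, 7.61 and 328 against 8600.0, 7572 and 2958, a difference of 7.22 (4.30 to 10.14). Gstp2, of the same enzyme class, differed by 2.17 (1.31 to 3.03), and Gclm, a subunit of the ligase that starts glutathione synthesis, by 1.01 (0.39 to 1.62). Both were higher in each basal-like domain library. Glutathione transferases form families of near-identical genes, so reads may have been divided among members. Gpx4, Hmox1 and Gstm5 overlapped, with -0.32 (-1.05 to 0.41), -0.08 (-1.21 to 1.06) and -2.15 (-4.71 to 0.42). That of Gstm5 was -0.93 without CT115, and that of Gpx4 was -0.21 without CT144, -0.05 without CT111 and -0.55 without CT113. Akr1b8, an aldo-keto reductase chosen after its values were seen, had the smallest p of all genes. It had 869, 1919 and 2186 normalized counts against 76523, 64452 and 24218, a difference of 5.00 (3.81 to 6.19, limma adjusted p = 0.148).

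Of the 46 PPAR target genes listed, 36 were tested and 25 were higher in the basal-like domain. Their median was 0.39, with 5 genes higher and 2 lower without overlap. These counts are not far from the shares over all genes tested, 9.66% higher and 7.48% lower, so the members below do not stand for the list. Acaa1b, a thiolase of peroxisomes, had 6.23, 9.54 and 36.7 normalized counts in basal tumors against 6656, 1202 and 1544 in the basal-like domain, a difference of 7.35 (5.00 to 9.69, limma adjusted p = 0.15). Its close paralog Acaa1a may share reads. Pdk4, a kinase that restrains pyruvate oxidation, differed by 3.87, and Cpt1a, which admits fatty acids to mitochondria, by 1.79 (0.29 to 3.30). These 3 did not overlap. The lipase Mgll and the fatty acid transporter Slc27a1 were the members that were lower without overlap, by -1.92 (-4.15 to 0.30) and -1.41 (-2.68 to -0.15), and Mgll differed by -0.79 without CT115. Cd36, Fabp5, Lpl and Angptl4, which handle lipid uptake and release, overlapped, with differences of -2.72 (-6.36 to 0.92), -1.67 (-4.81 to 1.46), -0.54 (-3.62 to 2.54) and -0.85 (-1.89 to 0.19). These moved with single libraries as well, Cd36 to -1.68 without CT129 and -1.48 without CT111, Fabp5 to -3.27 without CT113 and -0.25 without CT115, and Angptl4 to -0.52 without CT149, while the sign of Lpl turned. Retinoid genes had 9 of 15 higher and a median of 0.47, or 0.71 without CT129, 0.13 without CT144 and -0.62 without CT113. Aldh1a1, which makes retinoic acid, had 155, 2631 and 824 normalized counts against 13503, 8613 and 8448, a difference of 3.83 (1.79 to 5.88). Its levels did not overlap between the groups.

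Cell cycle genes were lower in the basal-like domain than in basal tumors, while the medians of both groups lay above the luminal domain. Of 43 S phase genes 39 were lower, 21 without overlap, and 0 were higher without overlap. The median was -1.00, and lay between -1.03 and -0.85 over the fits that drop 1 library. Of 52 G2/M genes 46 were lower, 17 without overlap, with a median of -0.72. Over the S phase list the mean above the luminal domain was 0.46, 0.98 and 0.31 in the basal-like domain and 1.82, 1.68 and 1.29 in basal tumors, so the groups did not overlap. Over the G2/M list they did, at 0.77, 1.47 and 0.99 against 2.08, 1.43 and 1.79. In both lists 0 genes passed the adjusted threshold.

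Top2a, a topoisomerase of dividing cells, had 13726, 7771 and 8028 normalized counts in basal tumors, 3239, 3024 and 2711 in the basal-like domain and 1567, 1023 and 1446 in the luminal domain. The 3 groups were ordered with no overlap. The difference between basal-like domain and basal tumors was -1.67 (-2.36 to -0.98, limma adjusted p = 0.163). Dtl, a substrate adaptor of replication control, had 1349, 1453 and 1756 against 257, 399.9 and 398, a difference of -2.13 (-3.11 to -1.14). Gmnn, the inhibitor of replication licensing, differed by -1.42 (-2.10 to -0.73), Ccne2, a cyclin of the G1 to S transition, by -1.89 (-3.05 to -0.73) and Ncapd2, a condensin subunit, by -1.96 (-3.06 to -0.85). All of these were lower in each basal-like domain library. Mki67, the common proliferation marker, overlapped at 5873, 7109 and 4952 against 4090.2, 5459 and 2937, a difference of -0.55 (-1.27 to 0.17) that was -0.32 without CT149.

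**Figure D4:**
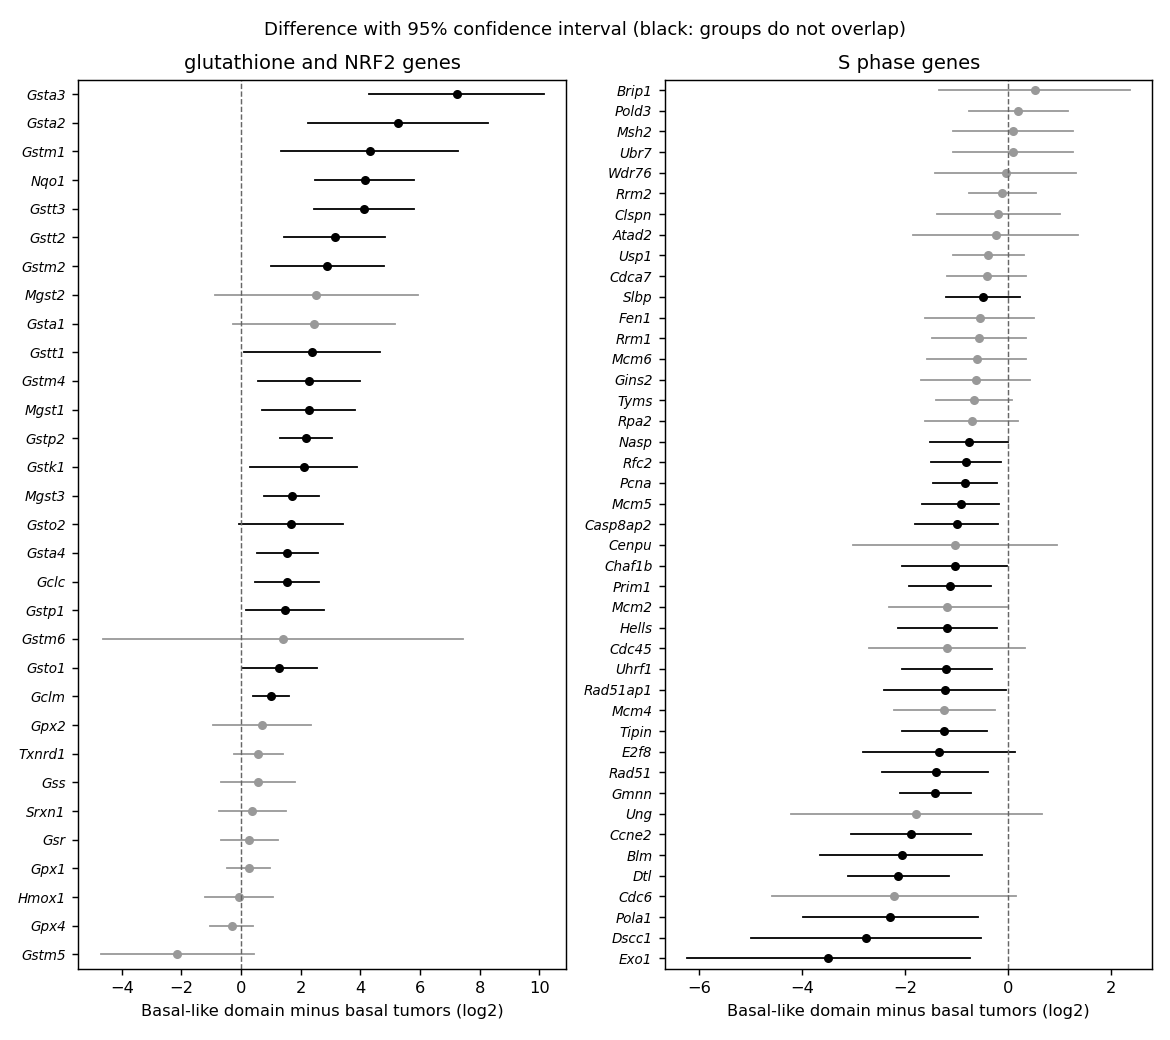
Points are differences between the basal-like domain and basal tumors on the log2 scale with 95% confidence intervals from limma, for 31 glutathione and NRF2 genes and 43 S phase genes. Black marks genes whose groups do not overlap, which are 19 glutathione and NRF2 genes, all above 0, and 21 S phase genes, all below 0.

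Upstream sequences are shown for members of these lists because their members lay mostly on 1 side together. RefSeq promoter entries (GRCm38.p6) matched 31 of the 43 S phase genes, 46 of the 52 G2/M genes, 26 of the 31 glutathione and NRF2 genes, 26 of the 36 PPAR target genes and 11 of the 16 luminal markers. In the 250 bases before each start 7 letter strings were searched on both strands in these 5 lists. TTTGGCGC, a form of the E2F element, lay upstream of 5 of 31 S phase genes (16.1%), and of 0.842% of all 11159 genes tested that have an entry. Its other forms TTTCGCGC and TTTCCCGC lay upstream of 3 S phase genes each (9.68%), against 0.582% and 1.84%. Each of the 3 forms lay upstream of 1 G2/M gene (2.17%). TTCGAA, a form of the cell cycle homology element, lay upstream of 3 of 46 G2/M genes (6.52%), against 2.06% of all. TGACNNNGC, the core of the antioxidant response element, lay upstream of 5 of 26 glutathione and NRF2 genes (19.2%), against 13.7% of all, and also of 3 of 11 luminal markers (27.3%) and 9 of 46 G2/M genes (19.6%). For S phase genes it was 4 of 31 (12.9%) and for PPAR target genes 3 of 26 (11.5%). The same core with an A added, which overlaps it, lay upstream of 2 of the 26 glutathione and NRF2 genes (7.69%) and 1 of the 11 luminal markers (9.09%), against 2.57%. This longer string lay upstream of 1 PPAR target gene (3.85%), 1 G2/M gene (2.17%) and 0 S phase genes. The direct repeat bound by PPAR dimers lay upstream of 0 genes in all 5 lists and of 0.0448% of all genes. The strings were chosen with results known, and a match is a description of letters. The S phase genes shown are the 3 with TTTGGCGC and the smallest p, followed by Gsta3 and Gclm with TGACNNNGC, with the matched letters in capitals.
Dtl, chr1:191575545-191575794, minus strand: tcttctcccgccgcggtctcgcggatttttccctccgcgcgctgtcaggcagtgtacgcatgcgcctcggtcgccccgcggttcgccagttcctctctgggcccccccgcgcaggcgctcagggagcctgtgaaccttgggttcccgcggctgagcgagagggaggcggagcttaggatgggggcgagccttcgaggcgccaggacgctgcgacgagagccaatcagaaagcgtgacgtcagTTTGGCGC
Pola1, chrX:93632156-93632405, minus strand: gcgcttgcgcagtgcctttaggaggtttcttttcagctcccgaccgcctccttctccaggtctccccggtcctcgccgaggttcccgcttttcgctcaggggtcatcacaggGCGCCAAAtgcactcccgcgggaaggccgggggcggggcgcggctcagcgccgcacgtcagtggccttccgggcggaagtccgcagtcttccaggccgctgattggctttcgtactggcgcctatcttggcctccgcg
Casp8ap2, chr4:32615220-32615469, plus strand: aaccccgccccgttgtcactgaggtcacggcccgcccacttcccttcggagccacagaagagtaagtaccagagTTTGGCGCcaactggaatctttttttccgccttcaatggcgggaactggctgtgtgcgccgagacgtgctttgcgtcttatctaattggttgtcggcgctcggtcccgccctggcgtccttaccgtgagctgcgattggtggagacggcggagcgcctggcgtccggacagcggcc
Gsta3, chr1:21240335-21240584, plus strand: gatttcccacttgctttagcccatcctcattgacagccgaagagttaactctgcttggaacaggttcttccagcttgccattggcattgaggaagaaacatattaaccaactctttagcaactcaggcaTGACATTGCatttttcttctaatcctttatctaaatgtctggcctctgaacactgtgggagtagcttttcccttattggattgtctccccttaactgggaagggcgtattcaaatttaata
Gclm, chr3:122245307-122245556, plus strand: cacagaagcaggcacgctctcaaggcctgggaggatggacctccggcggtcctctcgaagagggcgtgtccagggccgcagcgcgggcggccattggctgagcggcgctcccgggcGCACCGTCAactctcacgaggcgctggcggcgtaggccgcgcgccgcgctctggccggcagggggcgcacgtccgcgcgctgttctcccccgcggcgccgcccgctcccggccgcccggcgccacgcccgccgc

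In Dtl the match ends at the last base before the start. In Pola1 and Gclm it reads on the opposite strand. Pola1, the catalytic subunit of DNA polymerase alpha, differed by -2.29 (-3.98 to -0.59), and Casp8ap2, which is needed for histone gene expression in S phase, by -1.00 (-1.80 to -0.19), both without overlap.

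Invasion and matrix genes were mostly lower in the basal-like domain. Of 17 invasion and protease genes 15 were lower, 6 without overlap, with a median of -1.33, or -2.01 without CT113. Spp1, osteopontin, differed by -6.32 (-9.72 to -2.91), Mmp9, a gelatinase, by -3.75 (-6.90 to -0.60) and Tgfbi, a matrix adhesion protein, by -1.16 (-1.93 to -0.38), each without overlap. Of 13 EMT genes 7 were lower, with a median of -0.20 that ran from -0.68 without CT129 to -0.09 without CT144, and Fn1 was the 1 gene without overlap. The other 6 were higher, so this median covers members that went both ways. Esrp2 was higher, by 1.33 (0.22 to 2.45), and Vim lower, by -1.47 (-2.69 to -0.24), both with overlap. With 1 library left out, Vim ran from -2.04 to -0.95. Fn1, fibronectin, had 22489, 8552 and 14105 normalized counts in basal tumors, 3666, 1530.3 and 2964 in the basal-like domain and 866, 615 and 759 in the luminal domain. The 3 groups were ordered without overlap, and the difference from basal tumors was -2.45 (-3.49 to -1.41, limma adjusted p = 0.168). Nrg1, a ligand of Erbb3, had 4603, 2058 and 2563 against 720.4, 1317 and 983, a difference of -1.57 (-2.53 to -0.61). It was the 1 gene without overlap in a list of 8 genes, Egfr and ligands of the EGF receptor family, which does not hold Erbb2 or Erbb3, and the list's median was 0.04, running from -0.30 without CT149 to 0.41 without CT115. Myc was lower in each basal-like domain library, by -0.83 (-1.49 to -0.16). It was 1 of 2 genes lower without overlap in a list of 17 immediate early genes, against 7.48% of all genes tested. The other was Egr2, by -5.23 (-9.23 to -1.23), with 0.916, 74.2 and 0 normalized counts in the basal-like domain. Egr1 overlapped, with -2.43 (-4.56 to -0.31). The list's median was -0.14, which ran from -0.39 without CT113 to 0.10 without CT129. Hypoxia and glycolysis genes had a median of -0.38, or -0.24 without CT129, -0.59 without CT149, -0.93 without CT113 and -0.12 without CT115, with 1 of 21 out of overlap, Vegfa.

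Markers of stromal cells were mostly lower in the basal-like domain as well, and the fibroblast list itself holds matrix genes such as Postn and Col5a2. Of 18 fibroblast and matrix markers 15 were lower in the basal-like domain, and of 10 smooth muscle markers 10 were lower, with medians of -1.24 and -2.81. Without overlap were 3 fibroblast markers and 1 smooth muscle marker, Acta2, where 7.48% of all genes tested were lower without overlap. The fibroblast median was -2.09 without CT129, -0.79 without CT144 and -0.74 without CT149, and the smooth muscle median -1.77 without CT111. The mean of fibroblast markers above the luminal domain was 3.34, 0.85 and 0.47 in the basal-like domain and 3.51, 2.42 and 3.30 in basal tumors, so CT129 lay among the basal tumors. That of smooth muscle markers was 2.64, 0.37 and -0.91 against 6.04, 2.67 and 3.24. Acta2, smooth muscle actin, had 13264, 4422 and 41514 normalized counts in basal tumors against 3106, 1249 and 1858. Postn, periostin of the matrix, differed by -3.24 (-4.89 to -1.58), and Cnn1, calponin, had 5796, 55.8 and 2088 against 58.1, 0 and 0. Fn1, Spp1 and other matrix genes are expressed by such cells as well as by tumor cells, and the part of stromal cells in these differences was not tested. In bulk tissue fewer cells of a type and less RNA per cell cannot be told apart.

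Immune markers varied between the basal tumors. Of 20 T cell markers 13 were higher in the basal-like domain, with a median of 1.08, and 0 were out of overlap. The median was 0.54 without CT149, -0.08 without CT111, 2.94 without CT113 and -0.22 without CT115. Their mean above the luminal domain was 1.72, 1.50 and 2.45 in the basal-like domain and -1.29, 4.39 and -0.66 in basal tumors. CT113 was thus above, and CT111 and CT115 below, each basal-like domain library. NK and cytotoxic markers had the same order, at 1.13, 3.59 and 4.26 against -0.96, 5.92 and -0.90, with a median of 1.02, or 2.35 without CT129, 3.59 without CT113 and -0.04 without CT115. MHC class II genes, which present peptides to helper T cells, were higher in 7 of 7 with a median of 1.36, and each overlapped. Their median was 2.11 without CT144, 0.85 without CT149, 0.52 without CT111, 2.76 without CT113 and 0.77 without CT115. Interferon and MHC class I genes had a median of 0.39 and spread by library, at -0.66, -0.30 and 2.81 against -0.23, 2.21 and -1.41. Their median was 1.16 without CT129, 0.74 without CT144, -0.56 without CT149, 0.17 without CT111, 1.35 without CT113 and -0.32 without CT115. Macrophage markers were lower in 14 of 14 with a median of -0.88, 3 without overlap, and neutrophil markers in 7 of 8 with -2.42. The macrophage median was -0.54 without CT111 and -1.45 without CT115, and the neutrophil median -1.45 without CT111 and -3.67 without CT113. Of B and plasma cell markers 5 were tested, with a median of -1.27, 2 of them higher and 3 lower on average, and 3 were lower without overlap. Ighm, an immunoglobulin heavy chain, was among the higher, with 0.97, 674 and 1.83 normalized counts in basal tumors against 237, 98.4 and 216, a difference of 3.47 (-1.51 to 8.45) with overlap. That difference was 1.98 without CT111, 6.19 without CT113 and 2.24 without CT115. Igkc, an immunoglobulin chain, had 2795, 109786 and 54 normalized counts in basal tumors against 3.47, 5.52 and 28.5, a difference of -8.08 (-13.66 to -2.50) that was -5.37 without CT113. It did not overlap, and CT115 came close to CT149. Of 22 NF-kappaB and cytokine genes 10 were higher and 12 lower on average, with a median of -0.16 that ran from -0.43 without CT111 to -0.03 without CT149. Only Tnf and Il6 were out of overlap, 2 of the 22, and Tnf was lower by -4.31 (-7.07 to -1.55). Il33, an alarmin cytokine, was higher on average, at 6261, 19163 and 2934 normalized counts in basal tumors against 17908, 72596 and 17405 (95% interval of the difference 0.24 to 3.77), and overlapped. Its difference was 1.32 without CT144. Endothelial markers, Y-linked genes and mitochondrially encoded genes had medians of 0.28, -0.43 and 0.05. These ran from -0.50 without CT129 to 0.64 without CT149, from -0.65 without CT129 to -0.16 without CT111 and from -0.11 without CT149 to 0.18 without CT111.

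**Figure D5:**
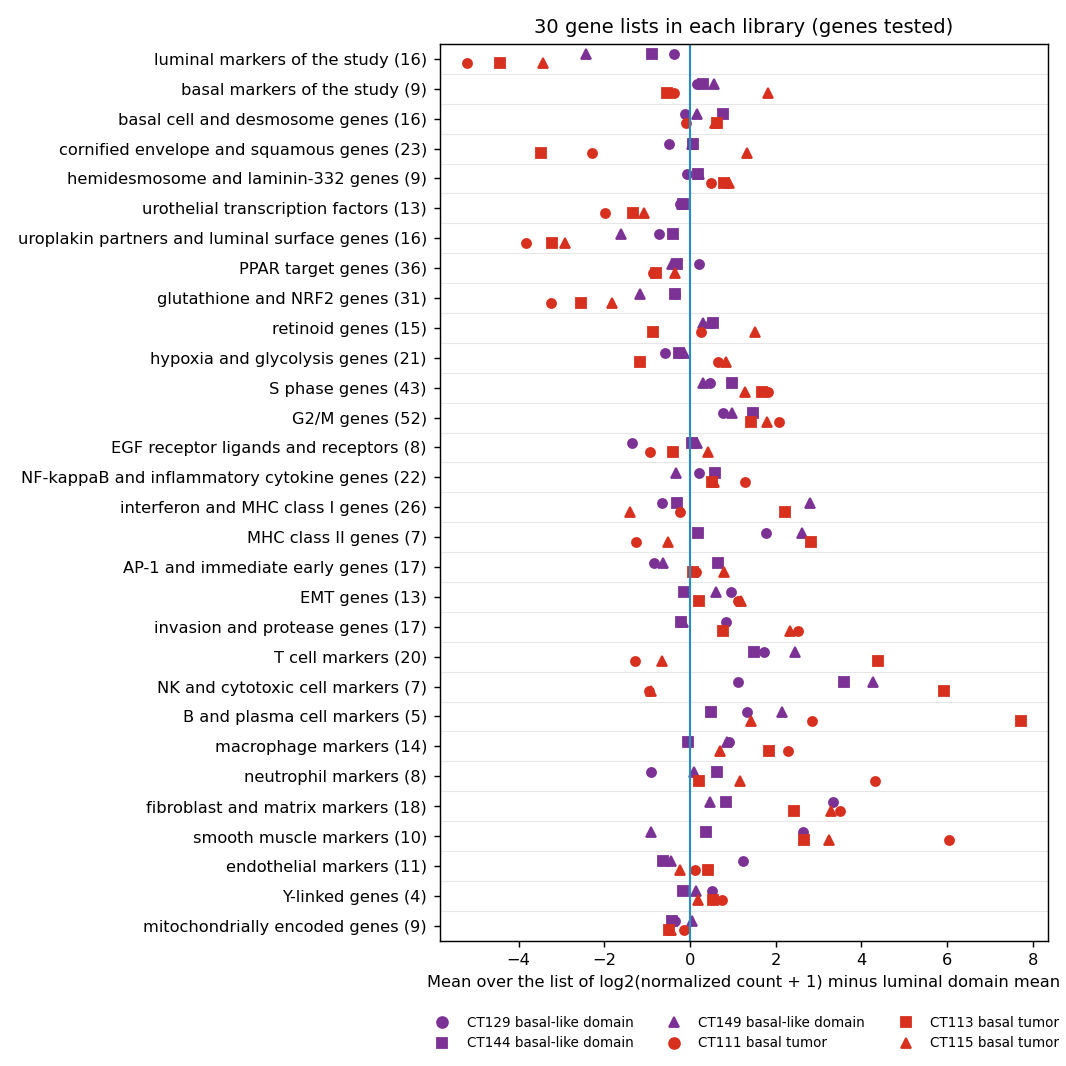
The 30 gene lists are in rows, and the x axis is the mean over the list of log2(normalized count + 1) minus the luminal domain mean, at 0. Symbols are the 3 basal-like domain and the 3 basal tumor libraries. Luminal markers, glutathione and NRF2 genes and S phase genes are among the lists whose groups do not overlap, and T cell markers place CT113 at 4.39 and the other basal tumors at -1.29 and -0.66.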

How the data were processed

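Tissue was laser-captured from frozen sections, and libraries were made with SMART-Seq v4 and Nextera XT. The authors quantified reads with kallisto, read them in with tximport and normalized each table with DESeq2, at versions 0.44.0 (kallisto) and 1.18 (DESeq2) by the submitters' processing notes. The deposited signal values are normalized counts, divided by factors that differ by gene and library, so depth in reads is not known. GRCm38 and GRCh38 are named in the submitters' processing notes, and the transcript index is not given in the sources used here. The authors' own fold changes and p-values were not used, nor were 23 columns of samples in other tables.

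The deposited signal was taken as log2(normalized count + 1), and the luminal domain mean of the same table was subtracted. A gene was tested if 3 or more of the 6 libraries held at least 10 normalized counts, and the test was limma 3.58.1 in R 4.3.3 (lmFit and eBayes with a trend on the mean log2 level), with Benjamini-Hochberg adjustment at 0.05. Differences are on this scale, which understates those of low genes, and intervals are at 95%. The code was tested on simulated data. For levels printed per library, basal-like domain values were multiplied by the factor between tables for that gene. This factor was not measurable for 94 genes tested that are at 0 in the luminal domain, Cnn1 among them, and the median factor was used.

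Named genes are 21 markers that the study shows and the 3 members of each of 30 lists with the smallest p, while the part of the rule for called genes named none. Other genes with values were chosen after values were seen, for their size, their role or a printed promoter (among them Akr1b8, Snx31, Fabp4, Trp63, Mki67, Itgb4, Pola1, Casp8ap2, Gclm, Cpt1a, Mmp9, Ivl, Krt78, Cdh1 and Epcam). Members and lists were chosen with earlier results of these data known, so counts over a list are not independent evidence. Alternatives were other pseudocounts, filters, trends, weights, scalings and bridges, a fold threshold, a fit of 9 libraries, and each library left out. Figures were drawn with Python 3.11.15 and matplotlib 3.10.9. Some genes are not reported here.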

Additional observations from a re-analysis of the deposited data

How the results depend on the processing

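The comparison of basal-like domain with basal tumors called 0 genes in 21 of 25 alternative settings, with 1062 to 2192 genes at an unadjusted p under 0.05 in all but the test against a fold of 2, which gave 517. It called 11 genes by eBayes without a trend and 39 in the fit of 3 groups and 9 libraries, and 0 to 44 with 1 library left out (44 without CT113, 7 without CT115). The cause was not tested. The trend covariate of the main test is the mean log2 level, and with limma's default, the mean bridged value, added after the data were seen, 0 genes were called. Basal-like domain against luminal domain gave 0 calls, and 12 without a trend. Basal tumors against luminal domain gave 314, 350 at a pseudocount of 5, 42 without a trend and 0 to 417 with 1 library left out (0 without CT128 or CT143, 13 without CT148, 22 without CT111, 159 without CT115, 417 without CT113). The distance from basal-like domain to basal tumors was 0.827 at a pseudocount of 5 and 0.863 with centred libraries.

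Of 141 named genes 129 kept their direction in each setting. Krt5 reversed with array weights (0.10) and with no bridge (0.01), and mt-Nd2 with quantile normalization (0.09). With 1 library left out, Krt5 ranged from -0.52 to 0.33, Krt14 from -0.74 to 0.08, Krt16 from -1.89 to 0.01, Krt6b from -1.67 to 2.84, Erbb2 from -0.02 to 0.58, Trp63 from -0.50 to 0.12, Epcam from -0.27 to 0.64, Lpl from -1.93 to 0.17, Hmox1 from -0.53 to 0.31, Klrd1 from -0.23 to 4.10 and Nkg7 from -0.04 to 4.97. Leaving out 1 library of either group moved 60 of the 141 differences by over 1.5 times or turned their sign. Of 30 list medians 19 kept their sign in each setting. Without a library left out, the retinoid median was 0.07 with array weights, 0.22 at a pseudocount of 5 and 0.30 with quantile normalization, and that of T cell markers 0.65 at a pseudocount of 5. Array weights also gave -0.40 for EMT genes, -0.24 for basal markers and -0.00 for endothelial markers, and a minimum of 50 normalized counts gave -0.41 for B and plasma cell markers and 0.10 for endothelial markers. The EGF receptor, immediate early, NF-kappaB and mitochondrial medians, all under 0.2 in size, also moved by over 1.5 times in some setting.

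No paired analysis was possible because basal tumors and the basal-like domain come from different mice, and the columns carry library numbers, not the replicate numbers of the labels. Between the domains, a replicate block by consecutive library numbers (CT128 with CT129, CT143 with CT144, CT148 with CT149), a pairing that no label gives and that was added after the data were seen, called 0 genes at adjusted p under 0.05, as without it. The smallest adjusted p was 0.0516 with the block and 0.655 without it, and 1881 against 784 genes had an unadjusted p under 0.05. Deviations from the group means correlated across genes at 0.32 to 0.34 between consecutive numbers, a hint from the data and not from the design. Between the others they correlated at -0.20 to -0.11. Deviations of 3 libraries from their mean sum to 0 for each gene, so the negative values follow in part from the positive ones. The number of reads is unknown, so the depth behind low genes is not known, and 3 libraries a group with wide spread among basal tumors leave wide intervals.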

Other observations

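Some genes were listed at 0 in all 3 libraries of a group. In basal tumors 14 genes were at 0 that had at least 10 normalized counts in each basal-like domain library, and the reverse held for 4 genes. Isl1, a LIM homeodomain factor, was listed at 0 in basal tumors and had 324, 64.6 and 681 normalized counts in the basal-like domain, and 23.8, 0 and 388 in the luminal domain. Lipc, hepatic lipase, was listed at 0 in basal tumors and had 114, 89.2 and 266 in the basal-like domain. Both were chosen after their values were seen, and no fold is given.

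Single genes outside the lists, also chosen after their values were seen, separated the groups. Capn13, a calpain, had 5.4, 41.3 and 5.78 normalized counts in basal tumors against 1774, 2044 and 3765 in the basal-like domain. Ugt2b34, a glucuronosyltransferase, had 5.41, 65.5 and 4.82 against 4519, 1037 and 4066. Apoe, a lipid carrier, had 61489.6, 43066 and 104907 against 13541, 9875 and 15394, a difference of -2.36 (95% interval -3.23 to -1.49). Timp2, an inhibitor of metalloproteinases, differed by -2.43 (-3.47 to -1.40). With limma, the adjusted p was 0.15 for Capn13, 0.15 for Ugt2b34, 0.15 for Apoe and 0.168 for Timp2.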
